A study of Rattus norvegicus with 6 samples.

Results

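The genes described here are 10 genes of the calcium store of the sarcoplasmic reticulum, chosen by name: Casq2, Casq1, Ryr2, Atp2a2, Pln, Sln, Jph2, Trdn, Asph and Hrc. Of these, 9 have a probe set that carries their symbol alone, 1 each, among 14506 genes with such a probe set, and Casq1 has none. The 9 measured genes had log2 signals between 7.76 and 13.23, so all of them passed the filter on dim probe sets, which asked for a log2 signal over 5 on 1 array or more and kept 11237 genes. Left atria were taken from 3 rats whose atria had been paced rapidly (RAP, a cycle of 70 ms) and from 3 rats with control pacing (a cycle of 140 ms), in both cases for 2 days. All 6 were adult male Sprague-Dawley rats (250 to 320 g) that carried an electrode on the right atrium and drank atenolol, a beta-blocker, and at these cycle lengths the ventricles beat at a similar rate in both groups. In the study each RAP rat and a control rat were operated on, recovered and paced side by side. Rats with the same replicate number in the sample titles are taken here as pair 1, 2 or 3. The titles do not state this match. Each array holds 1 rat. In the fit with pairs, the p-values rest on the spread of the changes between the 3 pairs, drawn towards the spread seen over all kept probe sets. Values are given as log2 signal, and a change is the RAP value minus the control value of the same pair, so that a change of 1 is a doubling of the signal.

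In a heart muscle cell the calcium that drives contraction is held in the sarcoplasmic reticulum. Calsequestrin, the protein of Casq2, binds calcium inside the store, and the ryanodine receptor, the channel of Ryr2, releases it when calcium enters the cell at the junction with the surface membrane. Triadin (Trdn) and junctin (a product of Asph) tie calsequestrin to the channel, junctophilin (Jph2) holds the store next to the surface membrane, and the pump encoded by Atp2a2 returns calcium to the store under the brake of phospholamban (Pln) and, in the atrium, sarcolipin (Sln). The question put to the arrays here is whether the transcripts of this machinery differed between atria paced at the short and at the longer cycle. The control rats were paced as well, so they do not stand for unpaced atria.

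The atrial transcripts Nppa, the atrial natriuretic peptide, and Myl7, the atrial regulatory myosin light chain, were bright on every array (log2 signals of 13.53 to 13.59 with RAP and 13.40 to 13.52 with control pacing for Nppa). The median signal of the arrays lay between 5.82 and 5.85. The control rat of pair 3 stood apart in other markers. Myl2, the regulatory light chain of ventricular myosin, had a log2 signal of 8.60 there, against 4.37 to 4.89 in the 3 RAP rats and 4.28 and 4.33 in the other control rats. Ventricular markers (11 genes measured) lay on average 0.91 above their own means over the 6 arrays in this rat, with -0.46 to 0.22 on the remaining arrays, and erythroid markers (6 genes) lay 2.14 above, with -0.89 to -0.10 on the remaining arrays. Results are also given without pair 3 and without control 3 alone. Every fit that leaves out a single rat also drops the pair block, so its result does not show the effect of that rat alone. Of all 11237 genes 2.94% passed the study's thresholds upward (an unadjusted p under 0.05 by limma with the pair as a block, and a fold change above 1.3) and 3.45% downward, and at an adjusted p under 0.05 the number of genes was 0 (774 at an unadjusted p under 0.05 in the same limma fit).

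Casq2 was the only one of the 9 measured genes to pass, and 0 passed downward. All 9 mean changes were above 0, from 0.13 for Trdn to 0.75 for Casq2, with a median of 0.33, while 48.8% of all genes had a change above 0 and their median was -0.0074. The genes were higher with RAP in 8 of 9 cases in pair 1, in 9 of 9 in pair 2 and in 3 of 9 in pair 3 (background 49.7, 48.1 and 51.7% of genes). Casq2, Ryr2 and Atp2a2 were higher in all 3 pairs, as were 14.3% of all genes, while 0 of the 9 were lower in all 3 pairs (14.1% of all genes). RAP and control values did not overlap for Casq2 and Atp2a2, as in 7.57% of all genes, and in 0 of the 9 did all RAP values lie below all control values (7.85% of all genes). The 9 genes come from the same tissue and the same 6 arrays and are not independent of each other. In whole tissue, a larger share of muscle cells and more RNA of a gene per muscle cell cannot be told apart.

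**Figure D1:**
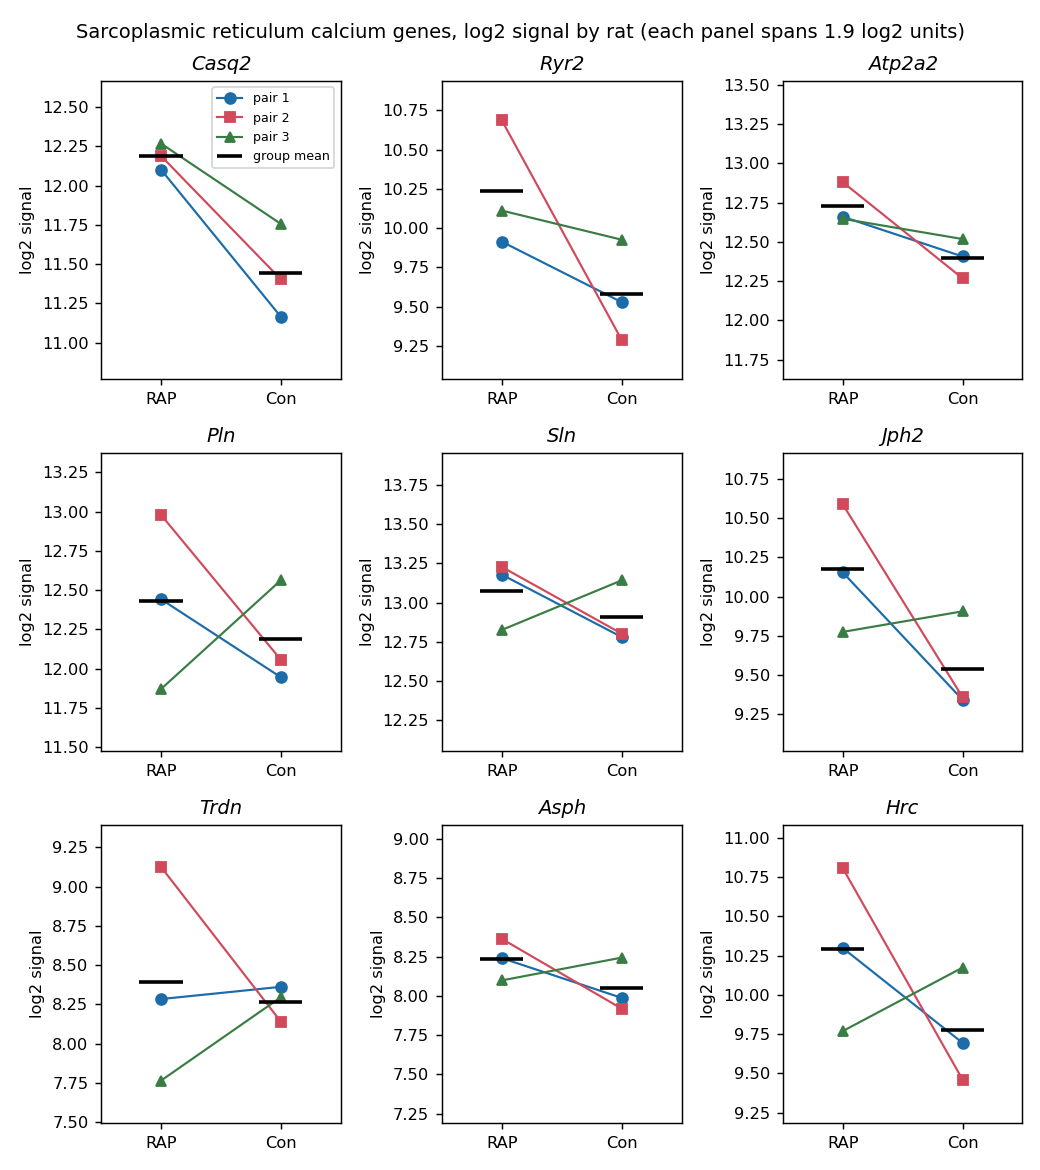
Log2 signal (vertical axis) of the 9 measured genes in the 3 RAP rats (left) and the 3 control rats (right) of each panel, with a line for each pair and a black bar for each group mean. In the panels of Casq2, Ryr2 and Atp2a2 all 3 lines are higher at the RAP end, while in the 6 other panels the line of pair 3 is lower there.

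Among the proteins of the calcium store, Casq2 carried the evenest difference. Its log2 signal was 12.10, 12.19 and 12.27 in RAP rats 1, 2 and 3, against 11.16, 11.40 and 11.76 in control rats 1, 2 and 3. Every RAP rat was above every control rat, and the RAP rats lay closer together (SD 0.08 with RAP and 0.30 with control pacing, n = 3 each). The changes of 0.94, 0.79 and 0.51 in pairs 1, 2 and 3 gave a mean of 0.75 (SE 0.15, 95% confidence interval 0.36 to 1.13), a 1.68-fold higher signal, with an unadjusted p of 0.0047 and an adjusted p of 0.756 by limma. Of all genes 0.774% had a larger rise. The change was 0.86 without pair 3 and 0.90 without control 3, and the gene passed the study's thresholds in each of the 20 fits made. The study chose Casq2 on these arrays for measurement by RT-qPCR, so its call here is not independent of that choice. The primers of that assay are shown because they define which transcript was followed up, written 5′ to 3′ and in lower case, with the sequences from the study's primer table.
Casq2 forward primer: ccaagaggctgggcttca
Casq2 reverse primer: ttccaccaagacatctgctgc

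Hrc, the histidine-rich calcium-binding protein that sits in the store beside calsequestrin, had log2 signals of 10.30, 10.81 and 9.77 in RAP rats 1, 2 and 3, against 9.69, 9.46 and 10.17 in the control rats. RAP 2 was the highest and RAP 3 lay between the control rats, so the groups overlapped. The changes were 0.60, 1.35 and -0.40 in pairs 1, 2 and 3, with a mean of 0.52 (SE 0.35, adjusted p = 0.793) that did not pass. It passed without pair 3 (0.98), without RAP 3 (0.78) and with array weights (0.63), and not without control 3 (0.71). The skeletal calsequestrin Casq1 was not measured, so the balance of the 2 calsequestrins is not given here.

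Ryr2, the release channel, had the largest single change of the release complex, in pair 2. Its log2 signals were 9.91, 10.69 and 10.11 in RAP rats 1, 2 and 3, against 9.53, 9.29 and 9.93 in the control rats. Each RAP rat was above its own control, but control 3 was above RAP 1. The changes of 0.39, 1.40 and 0.19 gave a mean of 0.66 (SE 0.27, 95% confidence interval -0.06 to 1.37, adjusted p = 0.756), which missed the thresholds with an unadjusted p of 0.064. Without the pair as a block Ryr2 passed, together with Casq2 and Jph2, against 3.62% of all genes (0 of the 9 passed downward, against 4.12%). It also passed without pair 3 (0.89), without control 3 (0.83), without RAP 1 (0.82) and with array weights (0.48), while without pair 2 the change was 0.29. The fits without control 3 and without RAP 1 had no pair block either.

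Trdn, the anchor between calsequestrin and the channel, was lower with RAP in pairs 1 and 3 and higher in pair 2. Its log2 signals were 8.28, 9.13 and 7.76 in RAP rats 1, 2 and 3, against 8.36, 8.14 and 8.30 in the control rats. RAP 2 was the highest and RAP 3 the lowest of the 6 rats, and the control rats lay within an SD of 0.11 (0.69 with RAP, n = 3 each). The changes were -0.08, 0.99 and -0.53, with a mean of 0.13 (SE 0.32, adjusted p = 0.935), and the direction turned to -0.30 without pair 2. The level of Trdn relative to Ryr2 on the same array was lower with RAP in all 3 pairs, by log2 changes of -0.46, -0.41 and -0.72 (mean -0.53, SD 0.16, n = 3 pairs), and the mean lay between -0.69 and -0.28 in the 20 fits. Ryr2 itself rose in each pair (0.39, 1.40 and 0.19), so a gene without any change would also lie below it in all 3. Casq2 and Jph2 relative to Ryr2, and Hrc relative to Casq2, took either sign among the pairs. No test was run on these ratios, and the share of all genes lower relative to Ryr2 in all 3 pairs was not computed. Trdn and Ryr2 have several transcript forms, which a single probe set does not separate.

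Asph encodes junctin as well as an aspartyl hydroxylase of the endoplasmic reticulum, and its probe set does not tell these products apart. Its log2 signals of 8.24, 8.36 and 8.10 in RAP rats 1, 2 and 3 overlapped with the 7.99, 7.92 and 8.24 of the control rats. The mean change was 0.18 (SE 0.17, adjusted p = 0.825), with 0.25, 0.44 and -0.15 in pairs 1, 2 and 3, and it did not pass in any of the 20 fits.

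Jph2, which spans the gap between the store and the surface membrane, had log2 signals of 10.15, 10.59 and 9.77 in RAP rats 1, 2 and 3, against 9.34, 9.36 and 9.91 in the control rats. RAP 1 and RAP 2 were above all control rats, and RAP 3 was below control 3. The changes of 0.81, 1.23 and -0.13 gave a mean of 0.64 (SE 0.29, 95% confidence interval -0.12 to 1.39, adjusted p = 0.756). Jph2 passed without the pair as a block, without pair 3 (1.02), without control 3 (0.82), without RAP 3 (0.84) and with array weights (0.80).

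**Figure D2:**
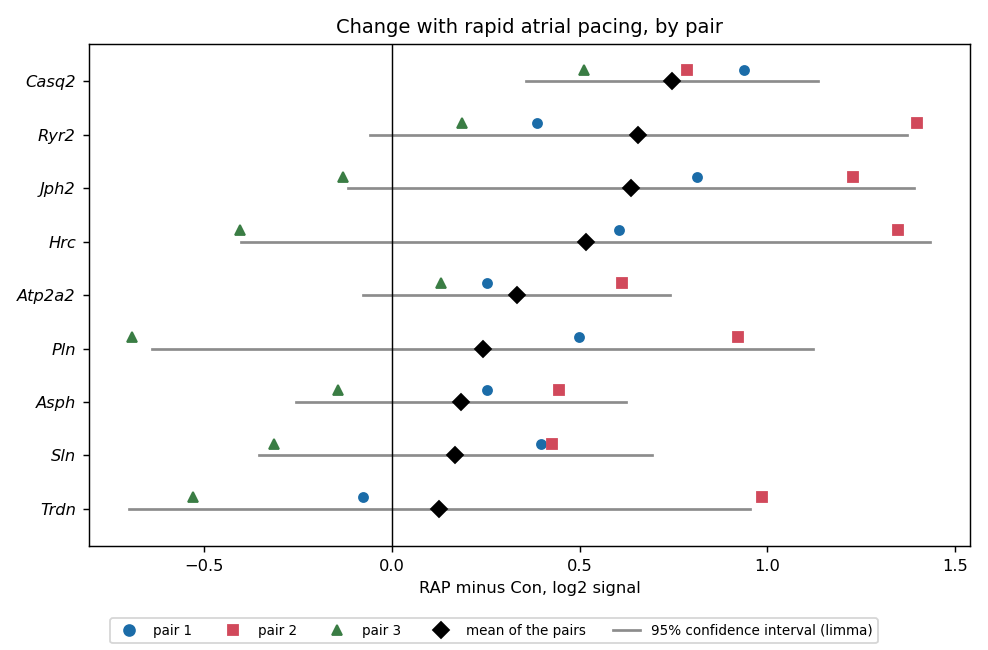
Change in log2 signal (horizontal axis, RAP minus control) of the 9 measured genes in pairs 1, 2 and 3 (coloured marks), with the mean of the pairs (diamond) and limma's 95% confidence interval (bar). Only the interval of Casq2, 0.36 to 1.13, lies off 0, and pair 3 has the lowest change of each of the 9 genes.

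The genes of calcium uptake had mean changes of 0.17 to 0.33. Atp2a2, the pump, had log2 signals of 12.66, 12.88 and 12.65 in RAP rats 1, 2 and 3, against 12.41, 12.27 and 12.52 in the control rats. The groups did not overlap, but the gap between RAP 3 and control 3 was only 0.13. The mean change was 0.33 (SE 0.16, 95% confidence interval -0.08 to 0.74, adjusted p = 0.756), with 0.25, 0.61 and 0.13 in pairs 1, 2 and 3, and it passed only without control 3 (0.39) among the 20 fits.

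Pln, whose protein slows the pump until it is phosphorylated, had log2 signals of 12.44, 12.98 and 11.87 in RAP rats 1, 2 and 3, against 11.95, 12.06 and 12.56 in the control rats. RAP 2 was the highest and RAP 3 the lowest of the 6 rats, and control 3, the rat with ventricular Myl2 signal, was the highest of the control rats. The changes were 0.50, 0.92 and -0.69, with a mean of 0.24 (SE 0.34, adjusted p = 0.878). It passed without pair 3 (0.71) and with array weights (0.48), and not without control 3 (0.43). It was -0.10 without pair 2 and -0.03 without RAP 2 alone.

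Sln, the short atrial inhibitor of the pump, had log2 signals of 13.18, 13.23 and 12.83 in RAP rats 1, 2 and 3, against 12.78, 12.80 and 13.14 in the control rats. RAP 3 lay among the control rats, and Sln was the brightest of the 9 genes. The changes were 0.40, 0.43 and -0.32, with a mean of 0.17 (SE 0.20, adjusted p = 0.856), and Sln passed only without pair 3 (0.41) among the 20 fits. Relative to Atp2a2 on the same array, Pln changed by 0.24, 0.31 and -0.82 in pairs 1, 2 and 3, and Sln by 0.14, -0.19 and -0.44. Both ratios thus took either sign among the pairs.

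The 9 genes shared an order of the arrays. RAP 2 was the highest of the 6 rats for 8 of 9 genes (21.8% of all genes), Casq2 being the exception, and control 3 was the highest control rat for 8 of 9 (36.6% of all genes), with Trdn as the exception. RAP 3 was the lowest RAP rat for 7 of 9 genes (36.1% of all genes). The change in pair 2 was the largest of the 3 pairs for 8 of 9 genes, and the change in pair 3 was the smallest for 9 of 9. The shares of all genes for these orders of the pairs were not computed, so they are not shown to be particular to these genes. Without pair 3, 6 of the 9 genes passed upward, namely Casq2, Ryr2, Jph2, Hrc, Pln and Sln, against 9.49% of all genes, and 0 passed downward (12.7% of all genes). Without control 3 alone, in a fit without pairs, 4 passed, namely Casq2, Ryr2, Atp2a2 and Jph2, against 6.85% of all genes, and 0 passed downward (8.55%). Without pair 1 Casq2 alone passed upward and 0 downward (0.516% and 0.943% of all genes), and likewise without pair 2 (1.46% and 1.9%).

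General markers of heart muscle cells moved in a like way in pairs 1 and 2. Of 10 measured cardiomyocyte markers, which hold none of the 9 genes, 5 passed upward and 0 downward, against 2.94% and 3.45% of all genes, with a median change of 0.49. Their mean change was 0.54, 0.90 and 0.10 in pairs 1, 2 and 3, and the mean change of the 9 calcium genes was 0.45, 0.91 and -0.16. The highest array for both lists was RAP 2 (0.47 above the mean for the markers, 0.54 for the calcium genes), and the lowest was control 2 (-0.44 and -0.36). The log2 of the summed signal of the cardiomyocyte markers ranged from 15.71 to 16.00 with RAP and from 15.25 to 15.64 with control pacing. Macrophage markers (19 of 20 measured, 0 passed upward and 1 downward, to be read against the same shares of all genes) ran the other way, with -0.44, -1.75 and 0.64 in pairs 1, 2 and 3, and fibroblast markers (12 of 12 measured, 0 upward and 1 downward) with -0.44, -1.81 and 0.59. The log2 summed signals ranged from 12.52 to 13.50 with RAP and from 12.72 to 14.27 with control pacing for macrophages, and from 13.62 to 14.56 and from 14.06 to 15.07 for fibroblasts. Ventricular markers changed by 0.31, 0.66 and -0.99, with log2 summed signals of 12.24 to 12.81 with RAP and 11.83 to 13.12 with control pacing, and erythroid markers by 0.13, 0.66 and -2.84, with 12.93 to 13.49 and 12.86 to 14.39. Adipocyte markers (11 of 11 measured, 4 passed upward and 0 downward) were higher with RAP in each pair, by 0.34, 0.35 and 0.64, and highest in RAP 3, with log2 summed signals of 11.79 to 12.63 with RAP and 11.57 to 12.21 with control pacing. Mesothelial markers (6 of 8 measured, 0 upward and 2 downward) changed by -1.08, -0.05 and -0.36, with 11.86 to 12.14 with RAP and 12.08 to 12.88 with control pacing. Atrial markers (11 of 13 measured, 1 upward and 0 downward) changed by 0.25, 0.64 and -0.12 in pairs 1, 2 and 3. Smooth muscle markers (8 of 8 measured, 0 upward and 0 downward) changed by 0.49, 0.33 and -0.31. Endothelial markers (11 of 12 measured, 0 upward and 0 downward) changed by 0.35, -0.02 and -0.11. The part of the cell types in the changes of the calcium genes was not tested.

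**Figure D3:**
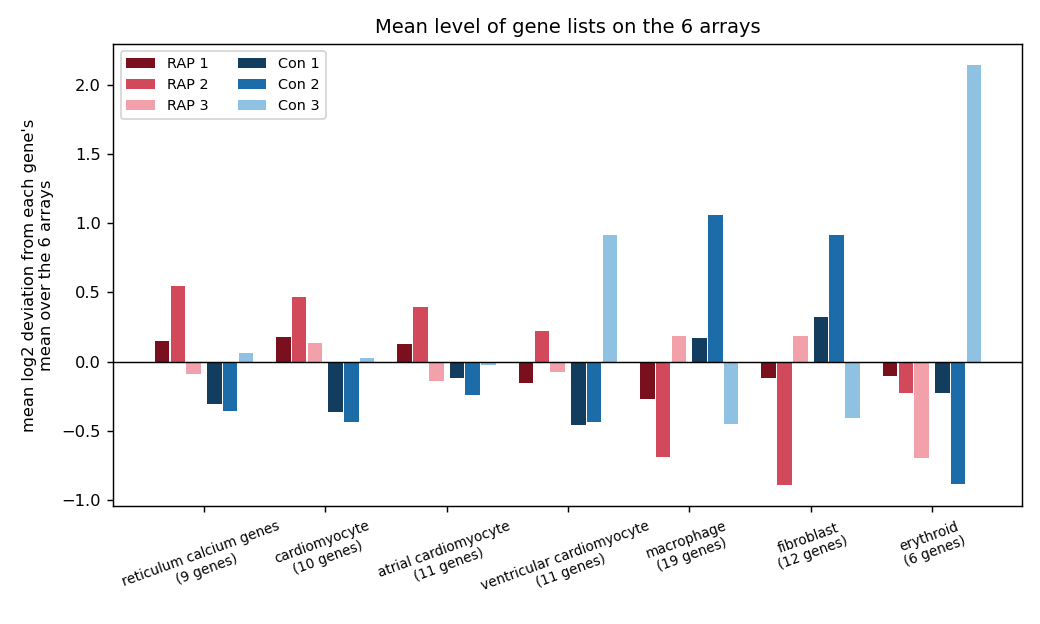
Mean log2 deviation of the genes of each list from their own means over the 6 arrays (vertical axis), for the 9 calcium genes and for markers of cell types (horizontal axis), with the 3 RAP arrays in reds and the 3 control arrays in blues. The calcium genes and the cardiomyocyte markers are highest in RAP 2 (0.54 and 0.47), and control 3 holds the peaks of the ventricular (0.91) and erythroid (2.14) markers.

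Set against the mean of the cardiomyocyte markers on the same array, the calcium genes lay on both sides of 0. Casq2 was higher with RAP in pairs 1 and 3 (0.40 and 0.41) and lower in pair 2 (-0.12). Sln was lower relative to the markers in all 3 pairs (-0.14, -0.48 and -0.42), as was Asph (-0.29, -0.46 and -0.25). The markers themselves rose in each pair (0.54, 0.90 and 0.10), so a gene without any change would also lie below them in all 3. Sln and Asph were higher with RAP in pairs 1 and 2 by their own signal. The share of all genes below the markers in all 3 pairs was not computed. The mean over the pairs ran from -0.39 for Trdn to 0.23 for Casq2, and no test was run on these differences. Fast skeletal muscle markers bear on Casq1 and Sln, which skeletal muscle also expresses. Of 17 such markers 4 (Myh1, Pvalb, Mymk and Myod1) stayed at or under a log2 signal of 5 on all arrays, and Myh4 reached at most 5.07. The 12 markers kept had a median change of 0.02, with 7 above and 5 below 0. Myl1 was the 1 marker that passed upward (log2 signals of 9.77, 8.55 and 9.68 in RAP rats, against 6.39, 8.46 and 8.04 in control rats). Eno3 changed by 0.77, 1.51 and -0.04 in pairs 1, 2 and 3 (mean 0.74, SE 0.32) and did not pass. The log2 summed signal of the 12 markers kept ranged from 11.00 to 11.23 with RAP and from 10.14 to 10.90 with control pacing.

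Other genes of the reticulum and of its junction with the surface membrane mostly did not pass. Of 38 such genes 32 were measured, of which 2 rose, 1 fell and 29 did not pass, with a median change of 0.06. Over all genes 2.94% rose and 3.45% fell, so the number that fell is near that share. The 2 that rose are also too few to be set apart from their share. Tmem38a, a potassium channel of the reticulum membrane that balances charge while calcium leaves, rose by 0.72 (SE 0.21, adjusted p = 0.756). Its log2 signals were 9.54, 9.83 and 9.48 in RAP rats 1, 2 and 3, against 8.77, 8.67 and 9.24 in the control rats, with no overlap and with a gap of 0.24 in pair 3. Tmem109, a membrane protein of the reticulum and nuclear envelope, rose by 0.47 (SE 0.14, adjusted p = 0.756), with changes of 0.29, 0.45 and 0.66 in pairs 1, 2 and 3 that were largest in pair 3. Stim2, a sensor of calcium in the store that opens entry channels of the surface membrane, fell by 0.43 on the log2 scale (SE 0.15, adjusted p = 0.756). Its log2 signals were 7.61, 7.23 and 7.47 in RAP rats, against 8.09, 7.82 and 7.67 in control rats, all RAP values lying below all control values. None of Tmem38a, Tmem109 and Stim2 passed without pair 1 or without pair 2. Tmem109 did not pass without pair 3 or with array weights, and Stim2 not without RAP 2, RAP 3, control 1 or control 2 alone.

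Partners of the release channel and of the pump showed smaller or uneven values. Jph1, the junctophilin of skeletal muscle, changed by 0.72, 0.87 and -0.09 in pairs 1, 2 and 3 (mean 0.50, SE 0.23), and Speg, a kinase that phosphorylates junctophilin and the pump, by 0.62, 0.87 and -0.06 (mean 0.48, SE 0.22). Neither passed in the fit with pairs. Both passed without the pair as a block, without pair 3 (0.80 and 0.75) and without control 3 (0.66 and 0.61). Fkbp1b, the immunophilin that binds the ryanodine receptor, had log2 signals of 5.27 to 5.53 with RAP and 5.21 to 5.37 with control pacing, a change of 0.09 (SE 0.15), which was -0.023 without pair 1. Such signals are dim, under the array medians of 5.82 to 5.85 and near the filter of 5, so they bear little on whether Fkbp1b changed. S100a1, a calcium sensor that acts on channel and pump, changed by 0.16, 0.78 and -0.56 (mean 0.12, SE 0.28), and turned to -0.20 without pair 2. Hax1, a partner of phospholamban, changed by 0.10 (SE 0.13).

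The skeletal isoforms of channel and pump were dim. Ryr1 had log2 signals of 5.35 to 5.42 with RAP and 5.24 to 5.49 with control pacing, and its change of 0.01 (SE 0.14) took either sign across the fits. Atp2a1 changed by 0.40, 0.47 and -0.06 (mean 0.27, SE 0.17) and did not pass. Bin1, which shapes the membrane tubules that face the store, changed by -0.66, -0.75 and 0.74 in pairs 1, 2 and 3 (mean -0.22, SE 0.34), and fell past the thresholds without pair 3 (-0.70). The largest upward mean changes of the list belonged to Tecrl (0.86, SE 0.38), a reductase-like protein of the reticulum, and Ppp1r3a (0.84, SE 0.48), which brings phosphatase to glycogen and the reticulum. Neither passed. Itpr1, an inositol trisphosphate receptor, had no overlap between RAP (8.04 to 8.10) and control rats (7.22 to 7.99), with a change of 0.49 (SE 0.19) that did not pass. Mtmr14, a lipid phosphatase, likewise had no overlap, with 7.01 to 7.15 in RAP rats and 6.84 to 6.94 in control rats, and its change of 0.20 (SE 0.13) did not pass. Itpr1 and Mtmr14, with Tmem38a and Tmem109, made up the 4 of 32 genes with all RAP values above all control values, against 7.57% of all genes. Stim2 was the 1 gene with all RAP values below, against 7.85% of all genes. These small counts were not tested against those shares. Tecrl, Ppp1r3a, Itpr1 and Mtmr14 were singled out after their values were seen.

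**Figure D4:**
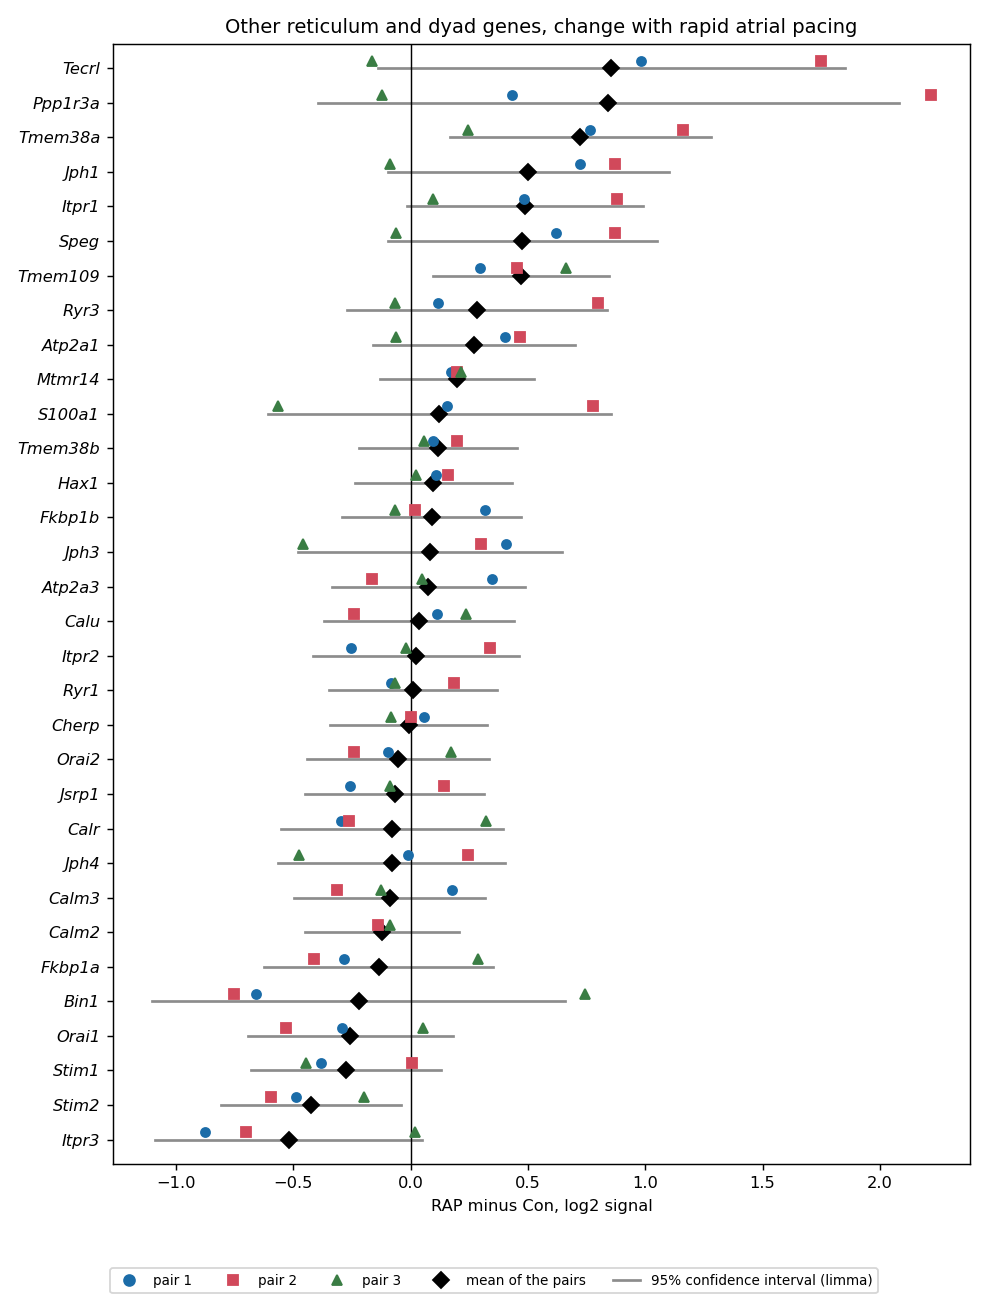
Change in log2 signal (horizontal axis, RAP minus control) of the 32 measured genes of the reticulum and its junctions other than the 9 above, by pair (coloured marks), with the mean (diamond) and limma's 95% confidence interval (bar). Intervals of Tmem38a, Tmem109 and Stim2 lie off 0, and Bin1 has its pair 3 at 0.74 against -0.66 and -0.75 in pairs 1 and 2.

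Promoter sequences from RefSeq (GRCr8) were found for 8 of the 10 genes, Sln and Asph having none in the table used. The 250 bases before the annotated start of 4 genes are shown, those of the 3 genes that were higher in all 3 pairs and that of Pln, which was not, 5′ to 3′ on the strand of the gene, with E-boxes (CANNTG, the site of helix-loop-helix factors) in capitals. Casq2 lies at chr2:192214306-192214555 (plus strand), Ryr2 at chr17:63081277-63081526 (plus), Atp2a2 at chr12:39733269-39733518 (plus) and Pln at chr20:33172244-33172493 (plus).
Casq2: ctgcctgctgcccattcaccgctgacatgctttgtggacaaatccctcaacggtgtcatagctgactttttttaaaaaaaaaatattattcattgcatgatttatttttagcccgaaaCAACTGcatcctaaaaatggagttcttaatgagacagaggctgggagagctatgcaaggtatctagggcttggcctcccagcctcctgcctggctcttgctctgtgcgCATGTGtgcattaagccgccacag
Ryr2: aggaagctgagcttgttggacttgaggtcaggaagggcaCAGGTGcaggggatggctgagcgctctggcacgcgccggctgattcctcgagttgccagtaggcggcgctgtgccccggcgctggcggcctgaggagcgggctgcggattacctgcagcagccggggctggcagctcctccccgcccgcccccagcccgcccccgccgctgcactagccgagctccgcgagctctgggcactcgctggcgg
Atp2a2: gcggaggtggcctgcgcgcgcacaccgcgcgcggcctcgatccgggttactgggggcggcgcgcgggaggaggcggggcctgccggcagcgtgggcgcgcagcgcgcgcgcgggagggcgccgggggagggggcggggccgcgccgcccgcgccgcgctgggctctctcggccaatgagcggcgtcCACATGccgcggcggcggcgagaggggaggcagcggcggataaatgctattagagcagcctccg
Pln: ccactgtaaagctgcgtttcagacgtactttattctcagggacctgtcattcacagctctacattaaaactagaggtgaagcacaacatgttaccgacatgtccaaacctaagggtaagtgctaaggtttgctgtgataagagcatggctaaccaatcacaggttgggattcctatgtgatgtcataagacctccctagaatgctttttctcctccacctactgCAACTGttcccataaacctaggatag

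An E-box was present in 5 of the 8 promoters (Casq2, Casq1, Ryr2, Atp2a2 and Pln), against 65.2% of 27457 rat promoters of the same length. Casq2 has 2, starting 132 and 24 bases before the annotated start, and Pln has 1 at 26 bases. A strict MEF2 site (CTA, 4 bases A or T, TAG, in 0.572% of all promoters), a CArG box (1.5%), the GATA site AGATAA (10%) and TATAAA (13.1%), searched on both strands and with overlaps between motifs allowed, were found in 0 of the 8 windows. A looser MEF2 site, searched for after the sequences were seen, with C or T as its first and A or G as its last base, was found in 1 of the 8, that of Casq2, starting 149 bases before the start, against 3.07% of all promoters. The promoters differed in base composition, with 80.0% G and C for Atp2a2 and 72.0% for Ryr2, against 46.4% for Casq2 and 44% for both Pln and Trdn (median of all promoters 52.0%).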

How the data were processed

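RNA from the left atrium of each rat had been hybridized to 1 Affymetrix Rat Gene 1.0 ST array. The authors made the deposited log2 signals in Partek Genomics Suite at the default settings of its RMA method (a robust average over the probes of a set), which corrects background, equalizes the arrays by quantiles and summarizes each probe set, and can compress differences of bright and dim probe sets. The software version is not given in the sources used here. Genes were named from the array annotation (15310 probe sets with 1 symbol, 323 with several, 13581 with none), and each gene was represented by the brightest of its probe sets. RAP and control pacing were compared over all 19907 kept probe sets with limma 3.58.1 in R 4.3.3, with the pair as a block (2 residual and 2.76 prior degrees of freedom) and Benjamini-Hochberg adjustment over these probe sets. The fit was tested on simulated data. Alternatives were a fit without the block, the paired t-test of the methods, a variance trend, array weights, other filters and normalizations, the mean of a gene's probe sets, and leaving out each pair and each array. The fits that left out a single array had no block.

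The study's methods describe pairs of rats, but the labels give replicate numbers only. Matching equal numbers is therefore an assumption, on which the pair changes and the blocked fit rest. The study reports likeness within its pairs by principal component analysis, without showing it. Deviations of paired arrays from their group means were correlated at 0.22, -0.24 and -0.32 in pairs 1, 2 and 3. The genes, the list of 38 other reticulum genes and the marker lists were chosen from textbook knowledge with earlier results of these data known. Named are all 10 genes, the partners past the thresholds and 11 fixed partners, of which Srl and Sri have no probe set of their own, and the 5 genes nearest to Casq2. Tecrl, Ppp1r3a, Itpr1, Mtmr14 and the marker genes named fall outside this rule and were picked with their values known. Mylpf was matched through its current symbol, Myl11. For smooth muscle, endothelium, adipocyte and mesothelium lists, 0 of 8, 0 of 11, 4 of 11 and 0 of 6 markers passed upward, and 0, 0, 0 and 2 downward. For atrial markers these were 1 and 0 of 11, for ventricular markers 0 and 0 of 11, for erythroid markers 0 and 0 of 6 and for skeletal markers 1 and 0 of 12. The precision is limited by the number of arrays.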

Additional observations from a re-analysis of the deposited data

How the results depend on the processing

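The call of Casq2 held in all 20 fits, which reuse the same rats, and its change lay between 0.61 and 0.90. Without pair 1 its unadjusted p by limma was 0.04999, just under the threshold. With an adjusted p under 0.05 in the reported fit the number of genes called was 0 of the 9 calcium genes and 0 upward and 0 downward over all genes. With no replicate block, 3 calcium genes were called upward and 0 downward, and 6 of their partners upward and 1 downward. Of all genes 407 (3.62%) were called upward and 463 (4.12%) downward in that fit. The methods' paired t-test called 1 calcium gene, 1 partner upward and 0 downward, and 119 genes upward and 115 downward of all, and Tmem38a and Stim2 did not pass it. With array weights 5 calcium genes, 6 partners upward and 3 downward, and 1161 and 1489 of all genes were called. These compare with 1 calcium gene, 2 and 1 partners and 330 and 388 of all genes in the reported fit. Centring the arrays on their medians gave 398 upward and 330 downward of all genes, with the same counts of calcium genes and partners. With a pair left out, between 3 and 8 calcium genes were higher in all pairs used. The share of all genes was not computed for this count, and the share given for 3 pairs does not apply to it. Leaving out a pair or a single array gave 1 to 6 calcium genes, 0 to 7 partners upward and 0 to 3 downward, and 58 to 1066 upward and 106 to 1422 downward of all genes. Over these omissions the change ranged between -0.10 and 0.71 for Pln, -0.30 and 0.45 for Trdn, -0.075 and 0.064 for Ryr1, -0.20 and 0.47 for S100a1, -0.70 and 0.044 for Bin1 and -0.023 and 0.17 for Fkbp1b, with the sign turned without pair 2, or for Fkbp1b without pair 1. Leaving out RAP 2 alone turned Pln (-0.03) and Trdn (-0.24). S100a1 also turned without RAP 2 (-0.18) and without control 1 (-0.03), and Ryr1 with array weights (-0.056), a further quantile normalization (-0.013), cyclic loess (-0.022), without RAP 2 (-0.0037) and without control 2 (-0.06). The cause of these shifts was not tested. Of the comparisons of single calcium genes with the alternatives, 150 kept direction and side of the thresholds, 17 newly passed and 4 turned.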

Other observations

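Of the 11237 genes, those whose signal over the 6 arrays lay nearest to that of Casq2 (Euclidean distance of the log2 profiles, each centred on its own mean) were Dnm1l (0.14), Smarcd3 (0.15), Idh3a (0.17), Immt (0.19) and Cap2 (0.20). Dnm1l is the dynamin-related enzyme of mitochondrial fission, Idh3a a subunit of the isocitrate dehydrogenase of the citric acid cycle and Immt a protein of the mitochondrial cristae. Smarcd3 is a subunit of chromatin remodelling complexes of heart muscle, and Cap2 binds actin monomers. Dnm1l had log2 signals of 9.16, 9.42 and 9.48 in RAP rats 1, 2 and 3, against 8.35, 8.56 and 8.94 in control rats 1, 2 and 3. Idh3a had 10.36, 10.47 and 10.65 in RAP rats, against 9.50, 9.58 and 10.11 in control rats. For both genes, as for Casq2, the RAP rats lay above all control rats and control 3 was the highest control. The other calcium genes lay farther from Casq2, with Ryr2 (0.65) at rank 567, Atp2a2 (0.66) at 586 and Jph2 (0.67) at 658 of the genes, and Trdn (1.36) at 8531. These genes were chosen for their likeness to Casq2, so their own changes are a description without a test.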
